A study of Caenorhabditis elegans with 6 samples.

Results

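The presynaptic active zone is the patch of membrane where a neuron releases synaptic vesicles. A scaffold of large proteins there holds vesicles next to calcium channels, and a set of upstream genes decides where and how large that scaffold becomes. In Caenorhabditis elegans much of this order is known from mutants in which presynaptic sites fail to form or vesicles scatter along the axon. The 6 genes described here were chosen by name from that pathway, and all 6 were found by their gene identifiers among the 47063 genes of the deposited tables. Among their products, UNC-10 (the worm RIM, which links vesicles to the release machinery) and ELKS-1 (the ELKS/CAST protein) are scaffold proteins of the release site. The protein SYD-2 (liprin-alpha) is a master organiser that recruits active zone components, and SYD-1, a protein with a RhoGAP-like domain, acts upstream of it. The SAD-1 kinase clusters vesicles and sets neuronal polarity, and RPM-1, a very large ubiquitin ligase of the Highwire family, restrains synapse and axon growth.

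RNA-seq was available from 6 libraries of C. elegans strain FQ939, with genotype given as WT, taken from embryos and larvae. Of these, 3 were labelled dopamine neurons and 3 serotonin neurons, and the strain and genotype labels were the same in both groups. The sources used here do not give how the cells were marked and collected, the age of the worms beyond these stages, or whether the replicates were separate cultures. The p-values therefore cover the spread of these libraries only, which may be technical. Recovered reads per library ranged from 20418663 to 31559049, and the share of nuclear ribosomal RNA was 40.9% in dopamine 1, 41.5% in serotonin 3 and from 7.53% to 13.7% elsewhere. The labels were checked on 4 identity genes. The dopamine transporter gene dat-1 averaged 15924 ± 6331 normalized counts in dopamine and 81.7 ± 19 in serotonin libraries (SD, n = 3 each), and the tyrosine hydroxylase gene cat-2 also lay far higher in every dopamine library. The tryptophan hydroxylase gene tph-1 and the serotonin transporter gene mod-5 lay far higher in every serotonin library. The other listed dopamine markers, dop-2, trp-4, ceh-43 and ast-1, were higher in every dopamine library. Of the other listed serotonin markers only ttx-3 was higher in every serotonin library. The groups overlapped for lim-4 and unc-86, and srh-142 was below the minimum and was not tested. Summed markers of body wall muscle ranged from 39074 to 56695 normalized counts in dopamine and from 62015 to 107020 in serotonin libraries. Those of the pharynx ranged from 1152 to 5819 and from 39380 to 64791, so the summed markers of both moved with the groups. At an adjusted p under 0.05 (limma), 6.36% of all tested genes passed toward serotonin and 3.16% toward dopamine. Of 10 muscle markers 4 passed toward serotonin and 1 toward dopamine, and of 10 pharynx markers 7 passed toward serotonin. The muscle markers toward serotonin were lev-11, ttn-1, unc-22 and unc-15, and the 1 toward dopamine was unc-54. The groups overlapped for myo-3, unc-27, mup-2, tni-3 and hlh-1, so the muscle sum does not speak for each marker. None of the muscle or pharynx markers was at 0 in any library, and their part in the differences between the groups was not tested. Summed markers of intestine, hypodermis, glia and germline overlapped between the groups.

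All 6 genes were well measured in both cell types. Each gene had between 1690 and 31029 recovered reads in every library, where counting error alone is at most 2.43%, and each was tested because it passed the minimum in all 6 libraries. On the FPKM scale, which divides by gene length, unc-10 stood highest in both cell types and rpm-1 lowest. The unc-10 mean was 140.9 ± 37.2 FPKM in dopamine and 59.8 ± 16.9 FPKM in serotonin libraries (SD, n = 3 each). It ranked 348 of 13156 tested protein-coding genes in dopamine libraries and 926 in serotonin libraries. The rpm-1 mean was 20.1 ± 4.42 FPKM and 12.3 ± 2.71 FPKM, at ranks 2936 and 4243. For comparison, the median tested protein-coding gene had 4.94 FPKM in dopamine and 5.57 FPKM in serotonin libraries.

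Between these ends the order of the levels differed between the cell types. In dopamine libraries sad-1 (60.1 ± 10.5 FPKM) and elks-1 (58.9 ± 9.02) came next and were followed by syd-1 (50.5 ± 14.3) and syd-2 (38.3 ± 3.16). Neighbours among these 4 had overlapping libraries, whereas unc-10 lay above sad-1 and syd-2 above rpm-1 in all 3 without overlap. Compared within each library, elks-1 lay above syd-1 and syd-1 above syd-2 in all 3, and sad-1 above elks-1 in 2. In serotonin libraries the order after unc-10 was elks-1 (41.5 ± 14.2 FPKM), syd-2 (33.7 ± 16.5), sad-1 (26.2 ± 4.04) and syd-1 (25.8 ± 1.65). Only the step from syd-1 down to rpm-1 had no overlap there. Within each serotonin library unc-10 lay above elks-1 and elks-1 above syd-2 in all 3. There syd-2 lay above sad-1 and sad-1 above syd-1 in 2 of 3. No test was made of these orders. The gene length implied by the ratio of normalized count to FPKM was within 2% of the annotated exon length for 5 genes and 0.897 of it for sad-1, so the place of sad-1 is less certain.

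**Figure D1:**
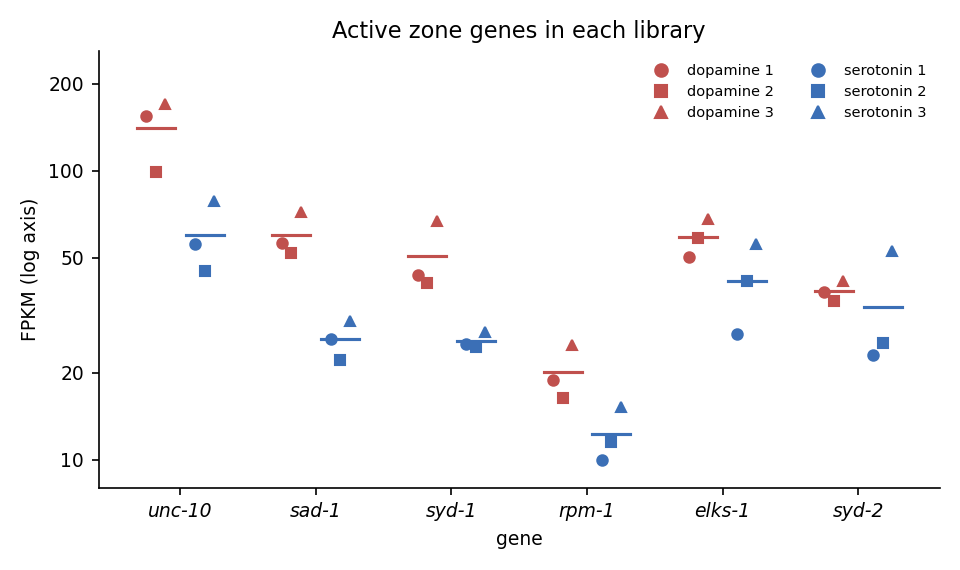
FPKM (log axis) of the 6 active zone genes in each of the 3 dopamine and 3 serotonin libraries, with the horizontal line at the group mean. The dopamine libraries lie above the serotonin libraries without overlap for unc-10, sad-1, syd-1 and rpm-1, and the groups overlap for elks-1 and syd-2.

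Dopamine was then compared with serotonin libraries, to ask whether these presynaptic transcripts differ between the 2 monoamine neuron types. On the deposited scale the 3 genes unc-10, sad-1 and syd-1 were higher in dopamine neurons, by 2.36-fold, 2.29-fold and 1.91-fold, and none was higher in serotonin neurons. So 3 of 6 passed toward dopamine, where 3.16% of the 15750 tested genes did (limma, adjusted p under 0.05 over all tested genes), and 0 passed toward serotonin, where 6.36% did. By edgeR 2 of 6 passed toward dopamine (background 2.57%) and by DESeq2 3 of 6 (4.55%), while 0 passed toward serotonin by either tool (4.75% and 8.44%). At an unadjusted p under 0.05 by limma, 4 of 6 were toward dopamine (8.34%) and 0 toward serotonin (14%). All 6 estimates were positive, with a median log2 fold change of 0.82 against -0.07 for all tested genes, and 3 of these 6 directions flipped once pan-neuronal genes set the scale. For 4 of the 6 the lowest dopamine library was above the highest serotonin library, which held for 12.3% of tested genes. Fewer synapse-forming cells in a library and less of these transcripts per cell cannot be told apart in bulk RNA. With the replicate number as a block, 5 of 6 passed toward dopamine against a background of 6.78%, and by edgeR with the block 4 of 6 against 4.88%. Leaving out 1 library gave 1 call without dopamine 1 (background 2.52%), 0 without dopamine 3 (1.42%) and 1 without serotonin 2 (2.01%). It gave 3 calls without dopamine 2 (426 of all 15750 tested genes). Without serotonin 1 (352) and without serotonin 3 (455) there were 2 each. Without both libraries rich in ribosomal RNA there was 1 call (1.87%) in a fit with fewer libraries. There 6 of 6 were toward dopamine at an unadjusted p under 0.05, with a median log2 fold change of 0.996. After scaling to ribosomal protein genes there was no call (1.78%), with 3 of 6 at an unadjusted p under 0.05. At an unadjusted p under 0.05, 3 genes were toward dopamine without dopamine 3. In these alternative fits the share of all tested genes at that unadjusted threshold was not computed. Their unadjusted counts therefore stand without a background.

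The release-site scaffold gene unc-10 (WBGene00006750, chromosome X, 7272317 to 7280322, minus strand, WBcel235) had the largest difference. It stood at 154 FPKM, 98.9 FPKM and 169.6 FPKM in dopamine 1, 2 and 3. In serotonin 1, 2 and 3 it stood at 56 FPKM, 45.1 FPKM and 78.3 FPKM. The lowest dopamine library, dopamine 2, still lay above the highest serotonin library, serotonin 3. The log2 fold change was 1.24 (SE 0.28, 95% interval 0.63 to 1.84, limma adjusted p = 0.0156). Leaving out dopamine 1, dopamine 3 or serotonin 2 ended the call (adjusted p = 0.0568, 0.0865 and 0.065), and the adjusted p lay between 4.16e-05 and 0.134 in all alternatives. It did not hold in the 4 libraries with less ribosomal RNA (log2 fold change 1.37, adjusted p = 0.0509), and between the ribosomal RNA-rich dopamine 1 and serotonin 3 the difference was 0.98 on the log2 scale.

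The second scaffold gene, elks-1 (WBGene00018330, chromosome IV, 3342515 to 3350027, minus strand), did not pass. It stood at 50.2 FPKM, 58.3 FPKM and 68.2 FPKM in the dopamine libraries. The serotonin libraries had 27.3 FPKM, 41.4 FPKM and 55.7 FPKM, a wide spread in which serotonin 3 lay above dopamine 1. The log2 fold change was 0.56 (SE 0.29, 95% interval -0.07 to 1.18, limma adjusted p = 0.287, and between 0.0458 and 0.696 in the alternatives). With the replicate block it passed (adjusted p = 0.0458), but by edgeR with the block it did not (adjusted p = 0.0826). Among the 4 libraries with less ribosomal RNA the difference was 0.91, and between dopamine 1 and serotonin 3 it was -0.15. Without serotonin 1 the estimate was 0.28.

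Of the 2 organisers, syd-1 passed and syd-2 did not. The upstream gene syd-1 (WBGene00006363, chromosome II, 7585695 to 7594912, minus strand) stood at 43.6 FPKM, 41 FPKM and 67 FPKM in dopamine libraries. In serotonin libraries it stood at 25.1 FPKM, 24.6 FPKM and 27.7 FPKM. The serotonin libraries lay close together, with a coefficient of variation of 6.41%, and dopamine 3 lay well above the other dopamine libraries. The log2 fold change was 0.94 (SE 0.26, 95% interval 0.38 to 1.49, limma adjusted p = 0.0396). This call was near the threshold. Leaving out any library but dopamine 2 ended it (adjusted p = 0.0599, 0.176, 0.099, 0.118 and 0.065 without dopamine 1 and 3 and serotonin 1, 2 and 3), as did edgeR (0.0508). Its adjusted p lay between 0.00238 and 0.566 in the alternatives. The difference was 1.08 among the 4 libraries with less ribosomal RNA and 0.66 between the other 2.

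The liprin-alpha gene syd-2 (WBGene00006364, chromosome X, 10549106 to 10555239, minus strand) had the smallest difference. Its dopamine libraries held 38.1 FPKM, 35.3 FPKM and 41.6 FPKM, with a coefficient of variation of 8.24%. The serotonin libraries held 23 FPKM, 25.5 FPKM and 52.8 FPKM, so the highest value of the gene was in a serotonin library. The log2 fold change was 0.29 (SE 0.31, 95% interval -0.40 to 0.97, limma adjusted p = 0.635, and between 0.0899 and 0.955 in the alternatives). It was 0.66 without serotonin 3 and 0.06 without serotonin 1, and neither passed. Among the 4 libraries with less ribosomal RNA it was 0.66, and between dopamine 1 and serotonin 3 it was -0.47, so the direction differed between these sets. Only 27 of its 3909 exon bases overlap a gene on the other strand.

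The kinase gene sad-1 (WBGene00004719, chromosome X, 13487552 to 13500668, minus strand) was the most stable of the 3 calls. It stood at 56.2 FPKM, 52 FPKM and 71.9 FPKM in dopamine and at 26.2 FPKM, 22.1 FPKM and 30.2 FPKM in serotonin libraries. Every dopamine library lay above the highest serotonin library by a wide margin. The log2 fold change was 1.20 (SE 0.24, 95% interval 0.66 to 1.73, limma adjusted p = 0.00909). Among the fits that left out 1 library, only the one without dopamine 3 lost it (adjusted p = 0.054), and the adjusted p lay between 1.82e-04 and 0.171 in all alternatives. The difference was 1.35 among the 4 libraries with less ribosomal RNA, where the call held (adjusted p = 0.0435), and 0.90 between dopamine 1 and serotonin 3.

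The ubiquitin ligase gene rpm-1 (WBGene00004457, chromosome V, 8805399 to 8819955, minus strand) has the longest annotated exon sequence of the 6, 11574 bases, of which 97 overlap a noncoding gene on the other strand. It stood at 18.9 FPKM, 16.4 FPKM and 25 FPKM in dopamine and at 9.97 FPKM, 11.6 FPKM and 15.3 FPKM in serotonin libraries. The groups did not overlap, by a narrow margin between dopamine 2 and serotonin 3. The log2 fold change was 0.71 (SE 0.26, 95% interval 0.15 to 1.28) and did not pass (limma adjusted p = 0.118, and between 0.00853 and 0.882 in the alternatives). With the replicate block it passed by limma (adjusted p = 0.00853) and by edgeR (0.0271). The difference was 0.92 among the 4 libraries with less ribosomal RNA and 0.31 between the other 2.

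Within each label the same library was highest for all 6 genes. Dopamine 3 was the highest dopamine library for all 6, as it was for 36% of tested genes, and serotonin 3 the highest serotonin library for all 6, as for 36.9% of tested genes. The lowest library was shared less: dopamine 2 for 5 of the 6 and dopamine 1 for 1, and serotonin 1 and serotonin 2 for 3 each. Among all tested genes dopamine 2 was lowest for 37.5%, dopamine 1 for 32%, serotonin 1 for 31% and serotonin 2 for 33.7%. In serotonin 3 the deviation from the group mean ranged from 0.10 to 0.75 on the log2 scale, with the median of pan-neuronal genes at 0.32. In dopamine 3 it ranged from 0.12 to 0.44, with the pan-neuronal median at 0.22.

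Because these genes are used by neurons in general, each was also set against 15 other pan-neuronal genes within the same library. Of the 15, 6 were themselves higher in dopamine neurons and none in serotonin neurons by limma, where 3.16% and 6.36% of all tested genes were. The 6 were led by the exchange factor gene rgef-1 (log2 fold change 1.34, adjusted p = 0.015), rpy-1 (1.23), ric-7 (1.11) and the endocytic gene ehs-1 (1.00). The count toward dopamine was 2 without dopamine 1 (all tested genes 2.52%) and 1 without dopamine 3 (1.42%). It was 2 without serotonin 1 (352 of all 15750 tested genes) and 0 without serotonin 2 (2.01%), with 7 at an unadjusted p under 0.05 in the last. It was 5 without dopamine 2 (426 of all 15750 tested genes) and 7 without serotonin 3 (455). The count was 0 on the ribosomal protein scale (1.78%) and when both libraries rich in ribosomal RNA were left out (1.87%), with 6 and 10 at an unadjusted p under 0.05. No share of all tested genes was computed for the unadjusted counts outside the main fit. At an unadjusted p under 0.05, 1 of the 15 was toward serotonin, and edgeR and DESeq2 called none that way. The list's median was higher in dopamine libraries, by 0.76 on the log2 scale, with 11.2 to 11.7 in dopamine and 10.4 to 11 in serotonin libraries. Scaling all libraries to this median moved the median log2 fold change of all tested genes from -0.07 to -0.82. It also moved the share of calls that were toward dopamine from 33.2% to 7%. On that scale 0 of 6 passed toward dopamine by limma, against a background of 1.22%, and 0 toward serotonin against 16.2%. At an unadjusted p under 0.05, 1 of the 6 was toward dopamine and none toward serotonin. With the block as well, an alternative added after the data were seen, unc-10 alone passed toward dopamine (adjusted p = 0.0287, background 2.11%).

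**Figure D2:**
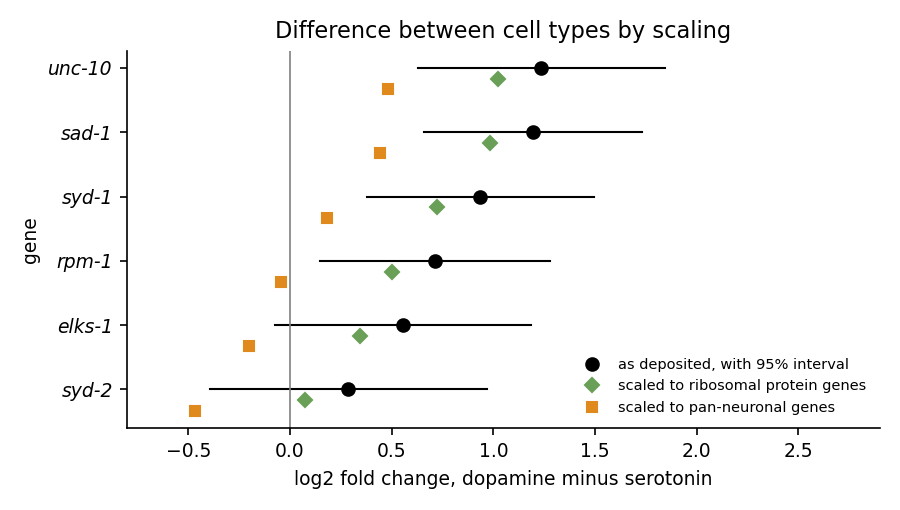
Log2 fold change of each gene (dopamine minus serotonin), as deposited with its 95% interval and after scaling libraries to ribosomal protein genes or to pan-neuronal genes. All 6 are above 0 as deposited and after scaling to ribosomal protein genes, and elks-1, rpm-1 and syd-2 fall below 0 after scaling to pan-neuronal genes.

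Relative to the pan-neuronal median the 6 genes separated. The scaffold gene unc-10 lay 2.44 ± 0.21 above it in dopamine and 1.96 ± 0.27 above it in serotonin libraries on the log2 scale (SD, n = 3 each). The difference was 0.48 and the libraries did not overlap (exact two-sided permutation p = 0.1, the smallest that 3 against 3 can give, adjusted over the 6 genes 0.2). For sad-1 the values were 0.55 ± 0.08 and 0.11 ± 0.23, again without overlap (difference 0.44, exact permutation p = 0.1). For syd-2 the direction was the opposite, at 0.26 ± 0.11 in dopamine and 0.73 ± 0.38 in serotonin libraries (difference -0.47, exact permutation p = 0.1). Much of this came with serotonin 3, at 1.16 against 0.53 and 0.49 in serotonin 1 and 2, and without it the difference was -0.25. Non-overlap on this scale was seen for 2.97% of all tested genes with dopamine above and for 36.1% with serotonin above. The rpm-1 gene had similar means, 0.88 ± 0.10 and 0.92 ± 0.02 (difference -0.04, exact permutation p = 0.5). For syd-1 and elks-1 the libraries overlapped, with differences of 0.18 and -0.20. The syd-1 difference was 0.07 without dopamine 3 or without serotonin 3, and that of elks-1 was -0.09 without dopamine 1 and -0.35 without serotonin 1. With the 14 release-site and calcium entry genes as the reference the separation of unc-10 and sad-1 did not hold. The unc-10 difference was then 0.26 and that of sad-1 0.22, both with overlapping groups (exact permutation p = 0.5 and p = 0.4). The differences were -0.69 for syd-2 and -0.26 for rpm-1, with every serotonin library higher for both (exact permutation p = 0.1 each). The median of this reference was higher in dopamine libraries by 0.98, against 0.76 for the pan-neuronal list. The share of all tested genes without overlap was not computed for this reference, so syd-2 and rpm-1 cannot be set against it. No result with 3 against 3 can pass a threshold of 0.05 in the exact permutation test.

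**Figure D3:**
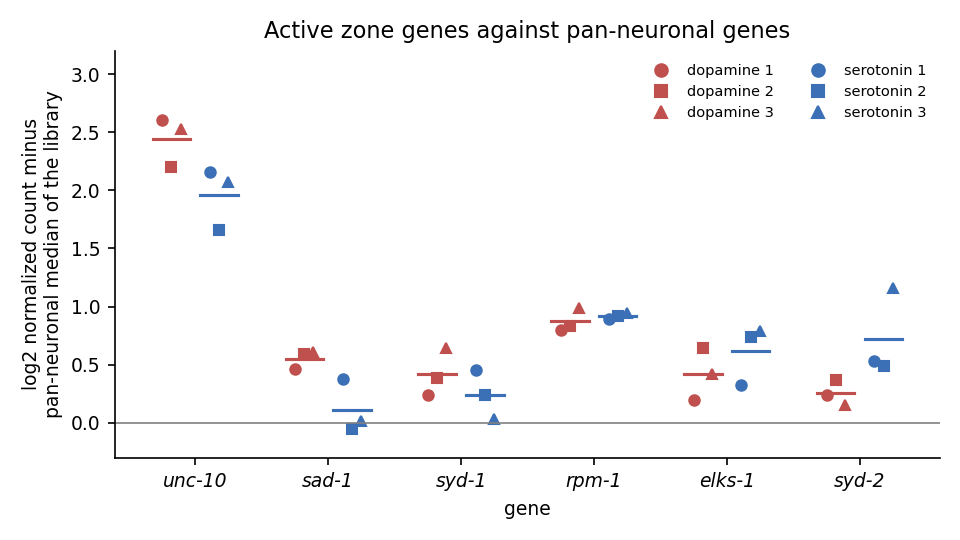
Log2 normalized count of each gene minus the median of 15 pan-neuronal genes in the same library, for 3 dopamine and 3 serotonin libraries, with the horizontal line at the group mean. For unc-10 and sad-1 all dopamine libraries lie above all serotonin libraries, for syd-2 all lie below, and for rpm-1 the means differ by 0.04.

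Ratios between the genes and their known partners do not depend on how libraries are scaled. Such ratios of FPKM were taken within each library for 9 pairs, chosen after the values were seen, with p-values adjusted over the 9. The ratio of unc-10 to unc-13, the Munc13 priming factor gene that RIM recruits, was 1.51, 1.61 and 1.5 in dopamine and 1.6, 1.37 and 1.44 in serotonin libraries. The group means were 1.54 ± 0.06 and 1.47 ± 0.12, and the groups overlapped (SD, n = 3 each, exact permutation p = 0.4, adjusted 0.514). The ratio of rpm-1 to dlk-1, the MAP kinase kinase kinase gene whose product RPM-1 marks for degradation, was 0.297 ± 0.014 and 0.323 ± 0.010. These groups overlapped too (exact permutation p = 0.2, adjusted 0.36).

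Against rab-3, the vesicle GTPase gene whose product binds RIM, unc-10 stood at 0.308 ± 0.044 and 0.321 ± 0.042. Against rimb-1, the RIM-binding protein gene, it stood at 2.37 ± 0.50 and 2.41 ± 0.48. Neither ratio separated the groups (exact permutation p = 1 and p = 0.7). The ratio of unc-10 to syd-2, by contrast, was 4.05, 2.8 and 4.07 in dopamine and 2.43, 1.77 and 1.48 in serotonin libraries. All dopamine libraries were higher, by 0.95 on the log2 scale (exact permutation p = 0.1, adjusted over the 9 pairs 0.3). The ratio of syd-1 to syd-2 was 1.14, 1.16 and 1.61 in dopamine and 1.09, 0.965 and 0.524 in serotonin libraries. Here too the dopamine libraries were higher, by 0.65 on the log2 scale, but by 0.33 without serotonin 3. The ratio of sad-1 to nab-1, the neurabin gene whose product binds SAD-1, was 1.20 ± 0.20 in dopamine and 0.794 ± 0.175 in serotonin libraries without overlap. Both had an exact permutation p of 0.1 and an adjusted p of 0.3. For elks-1 over syd-2 and rpm-1 over fsn-1, the F-box partner gene of the ligase, the groups overlapped. Within same-numbered libraries, however, both were higher in dopamine in 3 of 3, as were the ratios of unc-10 and syd-1 to syd-2 and of sad-1 to nab-1. The exact sign-flip permutation p was 0.25 for each, the smallest that 3 pairs can give. Without serotonin 3 the log2 difference of elks-1 over syd-2 was 0.14 against 0.27, and that of rpm-1 over fsn-1 was 0.23 without dopamine 2 and 0.24 without serotonin 1 against 0.37.

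**Figure D4:**
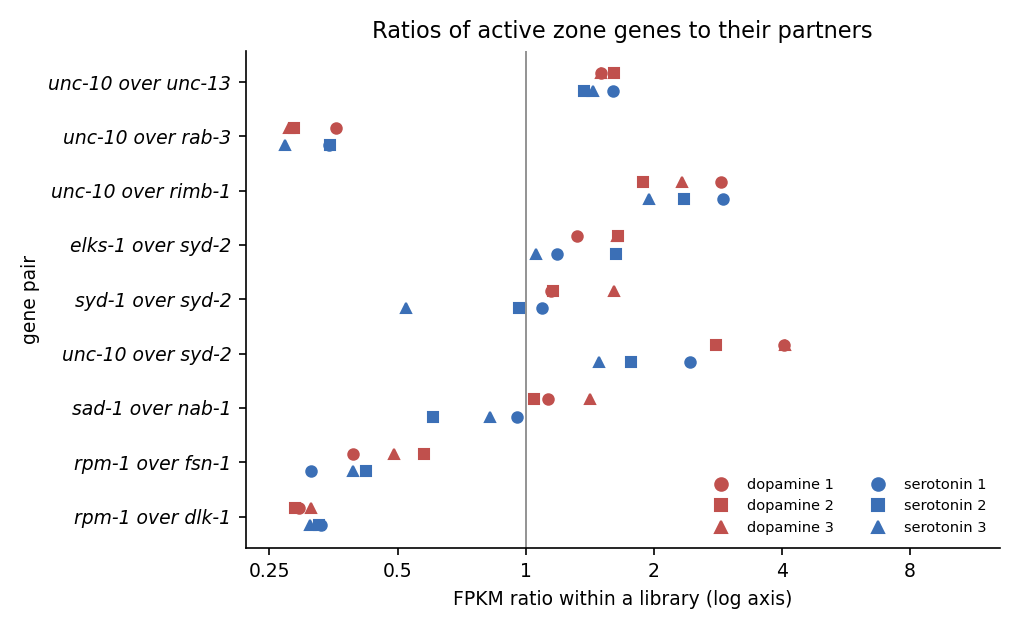
Ratio of FPKM between active zone genes and partners within each library (log axis), for 3 dopamine and 3 serotonin libraries per pair. The ratios of unc-10 to unc-13, rab-3 and rimb-1 overlap between groups, and those of unc-10 to syd-2, syd-1 to syd-2 and sad-1 to nab-1 are higher in every dopamine library.

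The genes whose pattern over the 6 libraries was most like that of each of the 6 were found by the root mean square difference of log2 values centred on each gene's mean. Among all tested protein-coding genes the closest to unc-10 was unc-13 (0.08), followed by the calmodulin-like gene cal-4 (0.09). The closest to rpm-1 were the gene frpr-5 (0.07) and dlk-1 (0.08). The diacylglycerol kinase gene dgk-1 and the synaptojanin gene unc-26 were closest to syd-1 (0.08 and 0.09). For sad-1 they were the calpain gene clp-1 and the gene pcdr-1 (0.08 each), with the synaptotagmin gene snt-1 at place 5 (0.11). The genes closest to syd-2 were the proteasome subunit gene rpn-8 (0.08) and F57C9.4 (0.09), and those closest to elks-1 were cone-1 and the arrestin gene arr-1 (0.08 each). Among the presynaptic lists the closest to both syd-2 and elks-1 was unc-14 (0.22 and 0.14), a gene of axonal transport, and the closest to syd-1 was aex-3 (0.14). Among all tested protein-coding genes unc-14 was at place 212 for syd-2 and 38 for elks-1, and aex-3 at place 26 for syd-1. These are descriptions over 6 libraries with no test, and all genes compared come from the same libraries, with their unequal depth and ribosomal RNA content.

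Within the 6, sad-1 and syd-1 were most alike (0.18), followed by syd-1 with rpm-1 and unc-10 with sad-1 (0.19 each). Many genes outside the 6 were closer. Among all tested protein-coding genes sad-1 was at place 63 and rpm-1 at place 93 for syd-1, and unc-10 at place 64 for sad-1. The gene syd-2 was farthest from unc-10 (0.55) and sad-1 (0.54). Its closest of the 6 was elks-1 (0.25), at place 450 among all tested protein-coding genes.

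Other genes of the pathway were taken as lists. Of 15 other active zone and synapse-forming genes, 3 were higher in dopamine neurons and none in serotonin neurons, where 3.16% and 6.36% of all tested genes were. Their median log2 fold change was 0.47, and it was -0.28 with pan-neuronal genes as the scale. The 3 were syg-1, a cell adhesion gene that marks where synapses form (log2 fold change 1.62, limma adjusted p = 0.00144), rimb-1 (1.26, 0.0256) and unc-13 (1.17, 0.0256). The syg-1 call held in every alternative run (adjusted p at most 0.0418), and syg-1 stood at 3277 ± 558 against 1059.5 ± 149 normalized counts. Those of rimb-1 and unc-13 ended when dopamine 1, dopamine 3, serotonin 1 or serotonin 2 was left out (adjusted p up to 0.155 and 0.185 over the alternatives). The list count was 1 without dopamine 1, dopamine 3 or serotonin 2 (2.52%, 1.42% and 2.01% of all tested genes). It was also 1 without serotonin 1 (352 of all 15750 tested genes) and 6 with the block (6.78%). Without dopamine 2 (426 of all 15750 tested genes) and without serotonin 3 (455) it was 4. No member was toward serotonin at an unadjusted p under 0.05, or by edgeR or DESeq2. On the pan-neuronal scale 1 gene passed each way (1.22% and 16.2% of all tested genes), and on the ribosomal protein scale 1 passed toward dopamine (1.78%).

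Of 14 genes of the release site and calcium entry, 5 were higher in dopamine neurons and none in serotonin neurons, where 3.16% and 6.36% of all tested genes were, with a median of 0.89. All 5 calls depended on the scale. On the pan-neuronal scale 0 passed toward dopamine or serotonin (1.22% and 16.2% of all tested genes), with a median of 0.14. There 2 were toward dopamine and 1 toward serotonin at an unadjusted p under 0.05. On the ribosomal protein scale 0 passed (1.78% of all tested genes toward dopamine), with 6 toward dopamine at an unadjusted p under 0.05. The 4 that passed with the largest difference were rab-3 (log2 fold change 1.30, limma adjusted p = 0.0235), the syntaxin gene unc-64 (1.28, 0.0106), the synaptotagmin gene snt-1 (1.19, 0.0183) and the rabphilin gene rbf-1 (1.13, 0.0229). Without dopamine 3 all 4 calls were lost, and those of rab-3 and rbf-1 were also lost without dopamine 1, serotonin 1 or serotonin 2, and that of snt-1 without serotonin 2. The list count was 2 without dopamine 1 (all tested genes 2.52%) and 0 without dopamine 3 (1.42%). It was 7 without dopamine 2 (426 of all 15750 tested genes) and 7 without serotonin 3 (455). It was 2 without serotonin 1 (352 of all 15750 tested genes) and 1 without serotonin 2 (2.01%). It was also 1 when both libraries rich in ribosomal RNA were left out (1.87%), with 11 toward dopamine at an unadjusted p under 0.05. At an unadjusted p under 0.05, 7 were toward dopamine without dopamine 3. For the unadjusted counts in these alternative fits the share of all tested genes was not computed. With the block the list count was 11 (6.78%), by edgeR 3 (2.57%) and by DESeq2 8 (4.55%). No member was toward serotonin at an unadjusted p under 0.05 or by these tools.

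For vesicle precursor transport, 1 of 13 genes was higher in dopamine neurons, the JNK kinase gene jnk-1 (log2 fold change 1.07, limma adjusted p = 0.0331), and none in serotonin neurons, against the same 3.16% and 6.36% of all tested genes. The list median was 0.42. On the pan-neuronal scale the median was -0.33, and 0 genes passed toward dopamine and 2 toward serotonin, where 16.2% of all tested genes did. The jnk-1 call was lost without any 1 library other than dopamine 1 (adjusted p up to 0.431 over the alternatives). With the block 4 passed toward dopamine (6.78% of all tested genes). At an unadjusted p under 0.05 there were 5 toward dopamine and none toward serotonin, and neither edgeR nor DESeq2 called any toward serotonin.

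In the RPM-1 and DLK-1 pathway none of 13 tested genes passed by limma toward dopamine or serotonin, where 3.16% and 6.36% of all tested genes did. Among them dlk-1 alone was under an unadjusted p of 0.05. By edgeR 0 passed (2.57% of all tested genes toward dopamine). By DESeq2 (4.55%) and without serotonin 3 (455 of all 15750 tested genes) 1 passed toward dopamine, and with the block 2 (6.78%). The fourteenth gene, glo-1, was below the minimum and was not tested. The 2 with the highest mean FPKM were cebp-1, the transcription factor gene at the end of the pathway (7949 ± 2154 against 11005 ± 3889 normalized counts), and the phosphatase gene ppm-2 (4230.3 ± 158 against 3209 ± 515). The list median was 0.33, and -0.43 on the pan-neuronal scale, where 5 of 13 genes passed toward serotonin and 16.2% of all tested genes did.

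**Figure D5:**
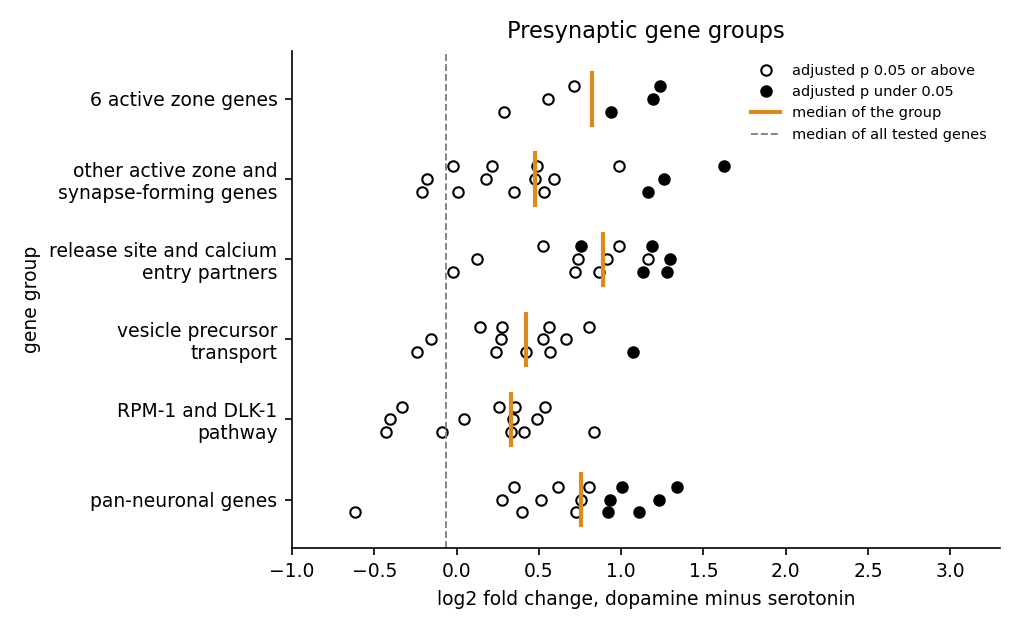
Log2 fold change (dopamine minus serotonin) of each tested gene in 6 groups, filled where the adjusted p is under 0.05, with the group median as a vertical bar and the median of all tested genes as a dashed line. The medians of the active zone, release site and pan-neuronal groups are 0.82, 0.89 and 0.75, and those of vesicle precursor transport and the RPM-1 and DLK-1 pathway are 0.42 and 0.33.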

How the data were processed

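RNA was measured in 6 libraries, 3 per cell type, made per the labels with a PicoPure kit and an amplifying Ovation system from a nanogram scale of RNA. STAR, HTSeq and DESeq2 appear in the submitters' processing notes, with neither role nor version, and no source used here gives the genome build. The authors deposited normalized counts as a signal (reads of a gene over a size factor). In each column every value above 0 was a whole multiple of 1 step (tolerance 0.02, 100% of values), from which reads were recovered. The authors also deposited FPKM, whose ratio to the normalized count was constant within a gene (largest CV 0.001 over 1624 genes), so both tables share 1 normalization between libraries. The spread between libraries of a group was above counting error, with a chi-square per degree of freedom of 116 to 458. Genes were matched by identifier to WBcel235 (Ensembl release 115), which covered 46407 of them. Overlap on the other strand cannot be resolved without the library's strandedness.

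The test used log2(normalized count + 1) of the 15750 genes (13156 protein-coding) that reached 10 normalized counts in 3 libraries or more. The groups were compared by limma 3.58.1 (trend, robust) in R 4.3.3 with Benjamini-Hochberg adjustment over all tested genes. Alternatives were other pseudocounts and filters, quantile, TMM, pan-neuronal and ribosomal protein scaling, log2(FPKM + 1), array weights, the count tests of edgeR 4.0.16 and DESeq2 1.42.0 on the recovered reads, a looser threshold, the 2 ribosomal RNA-rich libraries left out or as a covariate, the replicate number as a block, and each library left out. For the ratios between partners, leaving out each library and pairing by number were added after the data were seen. The limma and edgeR steps were tested on simulated data. Those data had the same dispersion for all genes and neither replicate pairing nor an effect of ribosomal RNA. They therefore cannot show how the steps fare where libraries differ in these ways. Deviations of same-numbered dopamine and serotonin libraries from their group means correlated at 0.433, 0.173 and 0.28, so the numbers were taken to pair the libraries from the data, although the labels give them only as names. The main test kept no block. The 6 genes and the lists were chosen with earlier results of these data known. Named genes were the 6, up to 4 of each list that passed with the largest change, or the 2 with the highest mean FPKM where none passed, the genes most like each of the 6, and partners in the ratios. A planned search of promoters for motifs was not run.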

Additional observations from a re-analysis of the deposited data

How the results depend on the processing

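The counts of calls moved with the scaling between libraries, the block and single libraries, and the folds with the scaling and single libraries. Scaled to pan-neuronal genes, 192 genes were higher in dopamine and 2549 in serotonin neurons (498 and 1002 as deposited), and the active zone count fell from 3 to 0. The log2 fold changes then were 0.48 for unc-10, 0.18 for syd-1 and 0.44 for sad-1, none passing, and reversed to -0.47 for syd-2, -0.20 for elks-1 and -0.043 for rpm-1. With the block added to that scaling (chosen after seeing the data) the estimates were the same, 1 of the 6 passed, and 5478 genes were higher in serotonin neurons. Scaled to ribosomal protein genes, 281 genes were higher in dopamine neurons, 20% of the calls, and 0 of the 6 passed, with unc-10 at 1.02, syd-1 at 0.72 and sad-1 at 0.98. With the replicate block, 1068 and 1842 genes passed by limma and 5 of the 6, adding elks-1 (0.56) and rpm-1 (0.71). By edgeR with the block 768 genes were higher in dopamine neurons and rpm-1 passed (0.73). The block changed no other call among the 6 in these fits, apart from syd-1, which edgeR called with the block and not without. The syd-1 call was also lost by edgeR (0.99), on the log2(FPKM + 1) scale (0.91) and with ribosomal RNA as a covariate (0.94). Without the 2 ribosomal RNA-rich libraries 294 genes were higher in dopamine neurons and 1 of the 6 passed, with unc-10 at 1.37 and syd-1 at 1.08. All 6 were toward dopamine at an unadjusted p under 0.05 (limma) in that fit, where the share of all tested genes was not computed. With release-site genes as the reference the relative differences were -0.040 for syd-1, 0.22 for sad-1, -0.26 for rpm-1 and 0.26 for unc-10, and unc-10 and sad-1 then overlapped between groups. Leaving out each library gave 0 to 3 calls among the 6, 224 to 455 genes higher in dopamine and 581 to 1289 in serotonin neurons. Without serotonin 3, 43.9% of calls were toward dopamine, against 33.2%. The ranges of these fits were 1.05 to 1.47 for unc-10, 0.72 to 1.07 for syd-1 and 1.06 to 1.31 for sad-1. The cause of these changes was not tested. Counting error was at most 2.43% for the 6 genes.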
